A study of Mus musculus with 36 samples.

Results

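Peaks of CTCF and of MBD3 in mouse embryonic stem cells were described at 10 imprinted genes, namely Kcnq1ot1, Cdkn1c, Peg3, Igf2r, Airn, Mest, Grb10, Rasgrf1, Gnas and Peg10. They are 10 of the 49943 genes annotated by RefSeq on chromosomes 1 to 19, X and Y, and 8 of them are protein-coding. A peak belonged to a gene when it overlapped the gene itself or the 20 kb beyond either annotated end by at least 1 bp, and the peak lists and coordinates are of the mm10 build. The 10 windows covered 0.965 Mb and held 35 sites of CTCF and 15 of MBD3, a site being all overlapping peaks of 1 antibody over the days. The chromatin immunoprecipitation (ChIP-seq) libraries used an antibody to CTCF or to MBD3, on days 0, 2, 4 and 6, with input chromatin of the same days, which gives 12 groups of 3 samples and 36 samples in all. All groups are labelled as the same mouse embryonic stem cells, grown in serum replacement medium with leukaemia inhibitory factor on irradiated mouse embryonic fibroblasts. The names of all peaks in the 8 lists carry WT, the usual short form of wild type, and the sample labels give no genotype. The day is the only label of time, and what the cells went through after day 0 is not stated in the labels. The series title names the NuRD complex and CTCF sites. The feeder fibroblasts are mouse cells as well, and their part in the chromatin was not tested.

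An imprinted gene is expressed mainly from the copy inherited from 1 parent, and which copy is silent is set by DNA methylation placed in the germline. CTCF is a zinc finger protein known for insulating neighbouring genes from each other and for anchoring chromatin loops, and at several imprinted regions it is known to bind the unmethylated allele. MBD3 belongs to NuRD, a complex that shifts nucleosomes and removes acetyl groups from histones. The peak lists do not separate the parental alleles, so a peak below may come from either copy or from both.

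The peaks of 3 annotated starts bear on the results, and their promoters are shown with that of Kcnq1ot1, in whose window no peak lay. Each sequence is from RefSeq (GRCm38.p6, the assembly of mm10) and runs 5′ to 3′ on the strand of its gene, from 250 bases before to 50 after the start. Capitals mark any of 4 words of 7 letters from the core of the CTCF motif, namely AGGGGGC or AGGTGGC or AGAGGGC or AGATGGC, searched on both strands. The promoter of Gm33663, a gene between Cdkn1c and Slc22a18, lies at chr7:143466449-143466748 on the minus strand and under a CTCF peak of all 4 days.
Gm33663: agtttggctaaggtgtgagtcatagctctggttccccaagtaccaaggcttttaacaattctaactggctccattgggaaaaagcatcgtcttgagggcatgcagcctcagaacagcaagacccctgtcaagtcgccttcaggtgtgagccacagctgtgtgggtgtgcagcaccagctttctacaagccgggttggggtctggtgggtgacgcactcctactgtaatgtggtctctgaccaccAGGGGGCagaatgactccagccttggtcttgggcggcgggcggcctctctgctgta
The first of the Gnas promoters lies at chr2:174284070-174284369 on the plus strand and under a CTCF peak of days 0, 4 and 6.
Gnas: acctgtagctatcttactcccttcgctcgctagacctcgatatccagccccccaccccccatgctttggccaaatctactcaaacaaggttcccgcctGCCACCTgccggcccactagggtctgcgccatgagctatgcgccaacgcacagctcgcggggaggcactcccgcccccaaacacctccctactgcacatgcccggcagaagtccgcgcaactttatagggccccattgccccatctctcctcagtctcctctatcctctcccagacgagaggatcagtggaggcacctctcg
The second of the Mest promoters lies at chr6:30737800-30738099 on the plus strand, and a CTCF peak of day 0 covered 240 of its bases.
Mest: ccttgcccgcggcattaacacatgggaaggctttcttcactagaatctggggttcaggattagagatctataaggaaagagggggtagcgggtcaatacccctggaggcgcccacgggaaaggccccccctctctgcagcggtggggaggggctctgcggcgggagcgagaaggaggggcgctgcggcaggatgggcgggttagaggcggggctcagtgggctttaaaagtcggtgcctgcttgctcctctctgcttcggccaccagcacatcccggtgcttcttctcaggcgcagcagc
The Kcnq1ot1 promoter lies at chr7:143296498-143296797 on the minus strand.
Kcnq1ot1: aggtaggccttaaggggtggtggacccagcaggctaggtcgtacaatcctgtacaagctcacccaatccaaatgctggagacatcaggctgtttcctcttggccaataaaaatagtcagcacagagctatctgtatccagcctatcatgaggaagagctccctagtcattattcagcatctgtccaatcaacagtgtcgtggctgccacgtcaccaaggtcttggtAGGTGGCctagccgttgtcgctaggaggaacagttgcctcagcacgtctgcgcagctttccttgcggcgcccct
In the Gm33663 promoter the word at positions 245 to 251 lay 13, 13, 13 and 6 bp from the CTCF summits of days 0, 2, 4 and 6. In the Gnas promoter the word at positions 99 to 105, read on the opposite strand, lay 41, 44 and 28 bp from the summits of days 0, 4 and 6. The Mest promoter held none of the words. The Kcnq1ot1 promoter held AGGTGGC at positions 227 to 233 without a peak in any list. Over 32851 promoters of the same length, 27.6% held a word, and the share was 54.1% for the 1932 promoters under a CTCF site of all 4 days. The table gives 14 promoters for 8 of the genes and holds neither Cdkn1c nor Peg10. A word was found in 9 of the 14, in promoters of Airn, Gnas, Grb10, Kcnq1ot1, Mest and Rasgrf1. The 14 are not all distinct sequences. The Gnas promoters chr2:174327499-174327798 and chr2:174327518-174327817 overlap and hold the same words. The Mest promoters chr6:30737800-30738099 and chr6:30737803-30738102 overlap as well. GCCATNTT, a core of the motif of the zinc finger protein YY1 that is known from the Peg3 imprinted region, was found in 0 of the 14 promoters, against 6.05% of all promoters. Only the 300 bases of each promoter were searched, so the rest of the Peg3 imprinted region was not read. The E-box CACGTG was found in the Igf2r promoter alone among the 14, against 7.15% of all promoters. In 13 of the 14 promoters the number of CpG pairs was above the median of all promoters, which is 7 in 300 bases. These matches describe letters and are not measured sites.

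The authors called peaks on replicates 1 to 3 together, once per antibody and day, which leaves 8 lists and no spread between replicates. No difference between days or between genes was therefore tested, and all values are given as levels. The CTCF lists held 47414, 28137, 36787 and 38109 peaks on days 0, 2, 4 and 6, and the MBD3 lists 10464, 1991, 9006 and 10875, so both were shortest on day 2. The lists do not give library totals. The number of sequenced fragments over each summit was recovered for all 124 peaks of the 10 windows and ran between 11 and 344, over an expected background of 2.92 to 28.3 fragments. Fold below means the authors' fold enrichment at the summit over that background, and folds of 1 site on several days depend on the background of each list. The 95% intervals below are exact binomial intervals and cover counting error only. The libraries were amplified by PCR and the protocols name no molecular identifiers, so fragments may be copies of the same molecule.

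CTCF peaks lay near most of the 10 genes on every day. On day 0 a CTCF peak was found for 9 of the 10 genes, against 79.4% of the 21887 protein-coding genes with the same windows. On day 2 it was 8 genes, against 67.8%, on day 4 again 8, against 74.1%, and on day 6 it was 9, against 74.9%. Genes of like length, each set beside a gene of the 10 at 0.8 to 1.25 times its length, had a CTCF peak in 88.4%, 77.1%, 83.6% and 84.3% on days 0, 2, 4 and 6. The share of the 10 genes was thus close to that of genes of like length. MBD3 peaks were found for 5 of the 10 genes on day 0, against 42.2% of all protein-coding genes. On day 2 they were found for Peg3, Grb10 and Gnas, 3 genes of the 10, against 10.6%. On day 4 there were 4 genes with MBD3, against 39.2%, and on day 6 there were 7, against 43.5%. The genes of like length had MBD3 in 47.3%, 11.4%, 43.1% and 48.4% on the 4 days. The MBD3 counts rest on weak peaks in part. With only peaks of a −log10 q of 10 or more, 3 genes had MBD3 on day 0 and 2 on day 4, and with the lists of an antibody shortened to the same number of peaks it was 2 genes on each of days 0, 4 and 6. With windows of 5 kb, 2 genes had MBD3 on day 4.

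**Figure D1:**
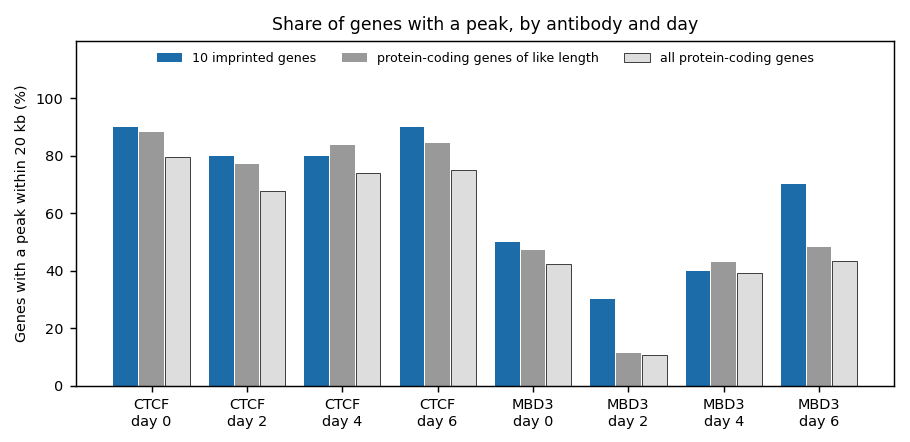
Percentage of genes with a CTCF or MBD3 peak inside the gene or within 20 kb of its ends on each day, for the 10 imprinted genes (blue), protein-coding genes of like length (dark grey) and all protein-coding genes (light grey). The blue bars stand within a few points of the dark grey bars for CTCF, and for MBD3 the gap is widest on days 2 and 6, at 30.0% against 11.4% and 70.0% against 48.4%.

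The windows held 31, 16, 23 and 24 CTCF peaks on days 0, 2, 4 and 6 and 8, 4, 6 and 12 MBD3 peaks. Per megabase this was 32.1, 16.6, 23.8 and 24.9 CTCF peaks, against 26.1, 15.1, 19.6 and 20.4 in the windows of all protein-coding genes. For MBD3 it was 8.29, 4.14, 6.22 and 12.4 peaks per megabase in the 10 windows, against 5.87, 1.04, 5.05 and 5.97 in the windows of all protein-coding genes. The numbers of MBD3 peaks are small, and shortening the lists to equal numbers leaves 3 peaks on each of days 0, 4 and 6. Keeping only a −log10 q of at least 10 left 4 MBD3 peaks on day 0. With windows of 50 kb, chosen after the data were seen, the number of CTCF peaks on day 2 was 25. The CTCF peaks had a median fold of 6.79, 5.37, 9.52 and 10.1 on the 4 days, against 6.67, 5.46, 8.56 and 8.91 over the whole lists. The MBD3 peaks had a median fold of 4.49, 6.74, 4.00 and 4.62, against 4.07, 4.29, 3.85 and 4.58 over the whole lists.

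Of the 35 CTCF sites, 16 were found on every day, which is 45.7% (95% interval 28.8 to 63.4), against 47.3% of the 53682 CTCF sites of the genome. They spread over 8 genes, since Igf2r and Kcnq1ot1 had none. Of the others, 8 were found on day 0 only, 5 on days 0, 4 and 6, 2 on day 6 only, 2 on days 4 and 6, 1 on days 0 and 2 and 1 on days 0 and 4. The shares of these patterns among all CTCF sites were not computed, and the day 0 list was the longest CTCF list. In the windows, the sites of every day reached a median highest fold of 13.5, with a range of 4.68 to 27.8. The other sites of the windows reached 4.37, with a range of 2.84 to 10.2. The highest fold was taken over the days with a peak, so sites of every day had more values to draw on. A strong peak is also more readily called on every day, so the 2 medians differ in part by construction. Of the 15 MBD3 sites, 3 were found on every day, which is 20.0% (95% interval 4.33 to 48.1), against 4.90% of the 18378 MBD3 sites of the genome. These 3 sites were 2 in Peg3 and 1 in Grb10, and 6 further sites were found on day 6 only. The share of sites of day 6 only among all MBD3 sites was not computed, and the day 6 list was the longest MBD3 list. The number of MBD3 sites was 9 when only peaks of a −log10 q of at least 10 were kept and 4 when the lists were shortened to the same length.

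**Figure D2:**
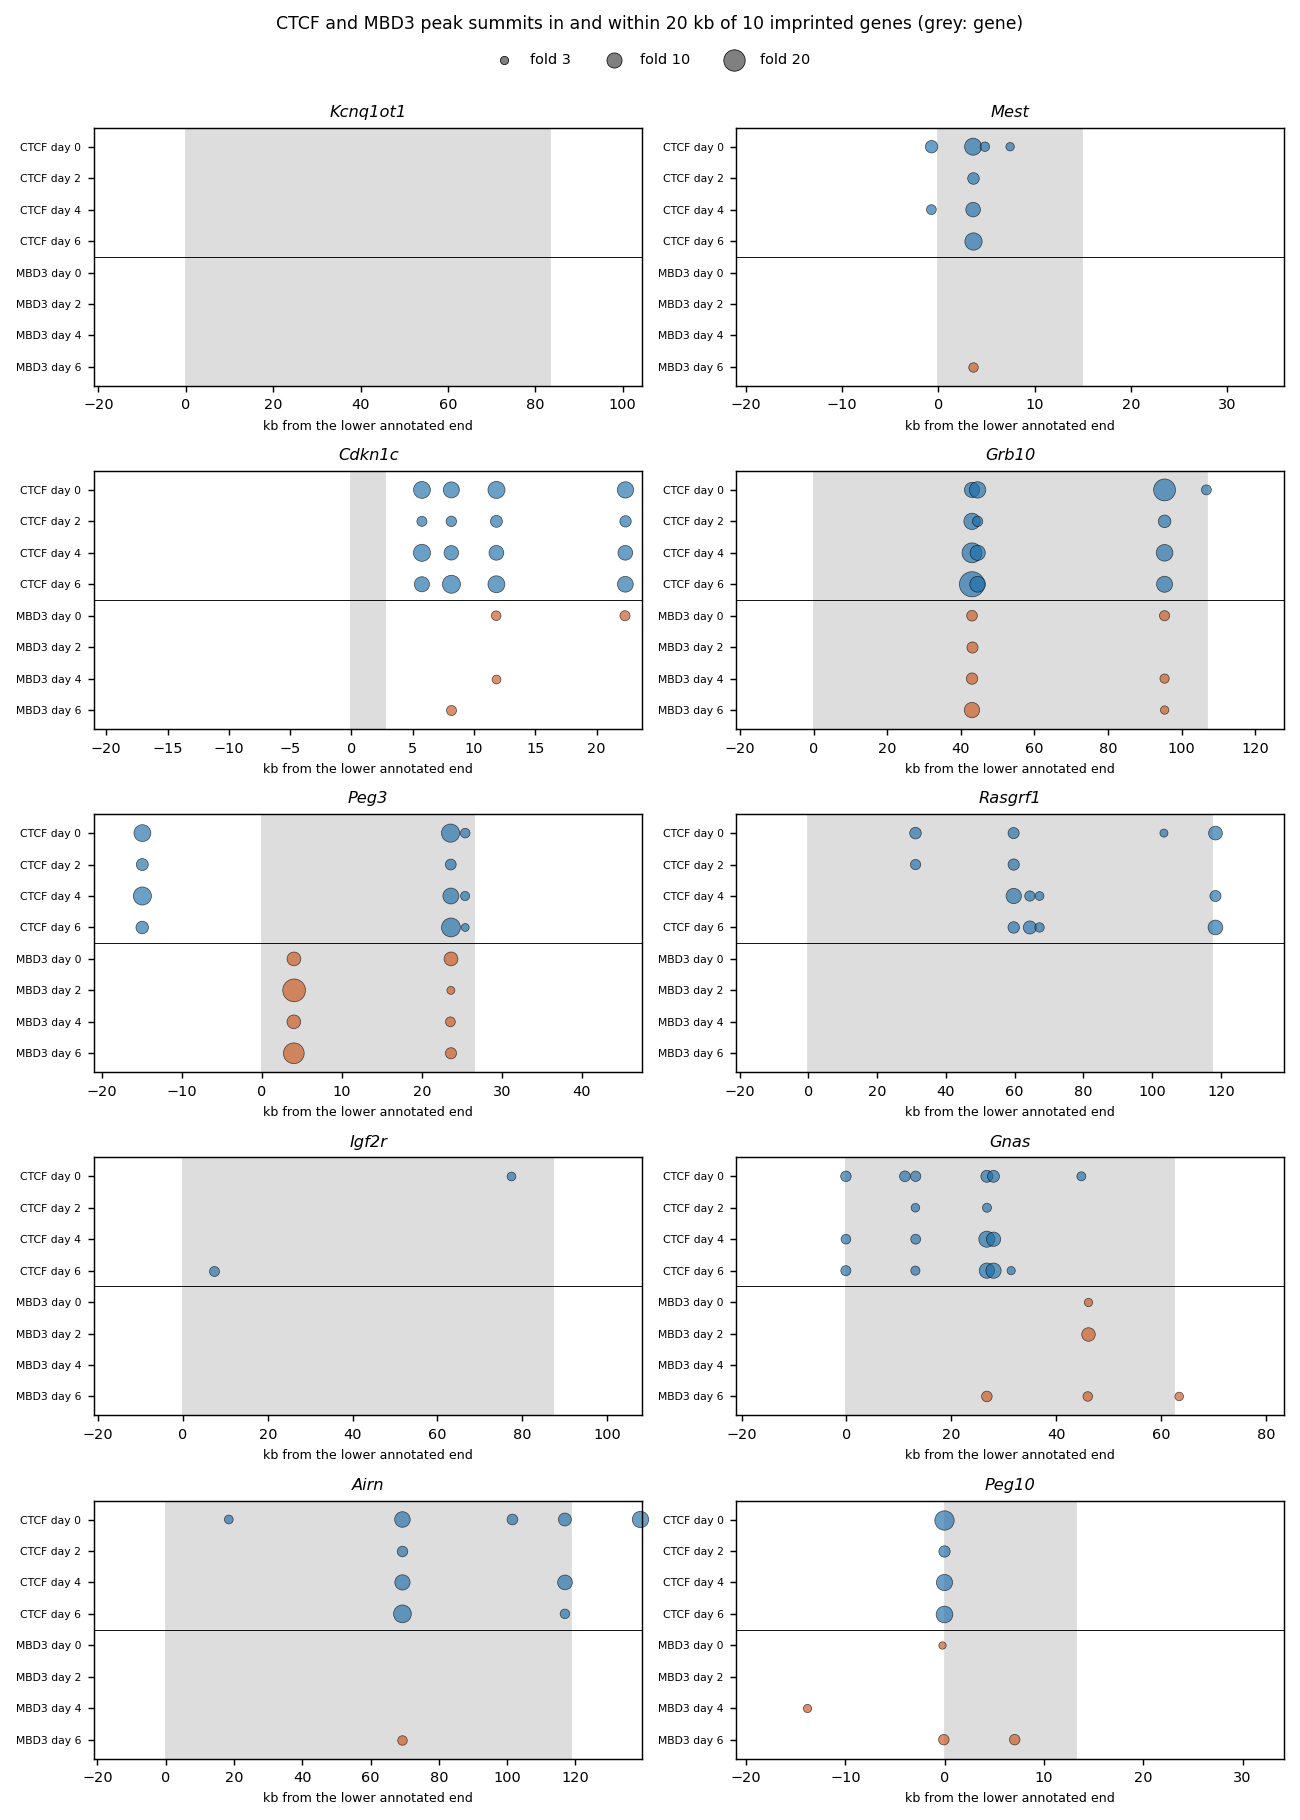
Position of every CTCF (blue) and MBD3 (orange) peak summit in the 10 windows, by day, as distance in kb from the lower annotated end of each gene (grey: the gene); the area of a circle follows the fold. No circle stands in the Kcnq1ot1 panel, 4 columns of CTCF stand above Cdkn1c, and the column of MBD3 near the lower end of Peg3 has no CTCF over it.

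Kcnq1ot1 is a long noncoding RNA inside Kcnq1, expressed from the paternal copy and known to silence neighbouring genes such as Cdkn1c on that chromosome. Its window, chr7:143193111-143316547, held 0 peaks in all 8 lists used here, and in each list the peak numbers, counted up from 1 by position, ran on with 0 missing. The nearest CTCF peaks lay 58880, 58964, 58891 and 58866 bp below the gene on days 0, 2, 4 and 6, with folds of 11.2, 3.93, 16.0 and 16.7. Above the gene the nearest CTCF peak was the lowest of the Cdkn1c sites, 167319 to 167409 bp away. Between them the CTCF lists left a stretch of 309.6 to 309.8 kb around Kcnq1ot1 without a peak. For MBD3 the stretch was 315.9, 787.2, 315.9 and 312.3 kb on days 0, 2, 4 and 6. Among protein-coding genes of like length to Kcnq1ot1, 82 of 1461 (5.61%) had no peak in any list either, and among all protein-coding genes they were 3896 of 21887 (17.8%).

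Cdkn1c encodes a cyclin-dependent kinase inhibitor that restrains cell division, and it is expressed from the maternal copy. No peak of either antibody overlapped the gene itself, chr7:143458339-143461059. Above it stood a row of 4 CTCF sites, each found on all 4 days, at 2807, 5228, 8910 and 19454 bp beyond the gene. Their day 0 summits were spaced by 2396, 3683 and 10522 bp. The first site, chr7:143463866-143464251 inside Gm33663, had CTCF folds of 12.5, 4.42, 12.8 and 10.0 on days 0, 2, 4 and 6 and no MBD3 on any day. The second, chr7:143466287-143466691, covers the Gm33663 start shown above, where the day 0 summit lay 10 bp from the start. Its CTCF folds were 11.2, 4.78, 9.22 and 14.2, and MBD3 overlapped it on day 6 with a fold of 4.40. The third, chr7:143469969-143470368, overlapped no annotated gene and had CTCF folds of 12.7, 6.23, 9.57 and 12.6, with MBD3 folds of 4.09 on day 0 and 3.46 on day 4. The fourth, chr7:143480513-143480869, lies in Slc22a18, a maternally expressed gene for a membrane transporter. Its CTCF folds were 11.7, 5.68, 9.49 and 10.9, with MBD3 on day 0 at a fold of 4.46. All 4 sites thus had their lowest CTCF fold on day 2, where their backgrounds were highest, at 18.0, 21.4, 16.3 and 14.7 fragments. Over the genome, 90.0% of CTCF sites of all 4 days had a lower fold on day 2 than on day 0. The fragments were also lowest on day 2 at chr7:143463866-143464251 and chr7:143466287-143466691, at 83 and 106. At chr7:143469969-143470368 they were 163, 107, 92 and 129 on days 0, 2, 4 and 6, lowest on day 4. At chr7:143480513-143480869 they were 139, 88, 84 and 78, lowest on day 6. MBD3 was found at the third and the fourth on day 0, at none on day 2, at the third on day 4 and at the second on day 6. The MBD3 peaks of this row rested on 23 to 43 fragments.

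Igf2r encodes the receptor that carries insulin-like growth factor 2 and mannose-6-phosphate-tagged enzymes to the lysosome, and in mice it is expressed from the maternal copy. It had a CTCF peak at only 2 places, each on 1 day, and no MBD3 peak. These were chr17:12689637-12689871 on day 6, with a fold of 4.37 over 21 fragments, and chr17:12759707-12759895 on day 0, with a fold of 3.37 over 15 fragments. The day 0 peak lies in both Igf2r and Airn and is counted for both genes, though once in the totals. Airn, a long noncoding RNA transcribed antisense through the Igf2r start on the paternal copy and known to silence it, had 5 CTCF sites. The strongest inside the gene, chr17:12810454-12810837, had folds of 10.6, 4.87, 10.2 and 13.9 on days 0, 2, 4 and 6, and MBD3 overlapped it on day 6 with a fold of 4.00. Near the far end of Airn, where it overlaps Mas1, a gene for a receptor of the G protein-coupled class, chr17:12858098-12858397 had CTCF on days 0, 4 and 6 at folds of 7.35, 9.52 and 3.99. A second site in Mas1, chr17:12842770-12842960, was found on day 0 only at a fold of 5.04. The fifth, chr17:12879799-12880611, stood at the rim of the window, where its wide day 0 peak crossed into the window and its peaks of days 2, 4 and 6 lay beyond it. It had CTCF folds of 11.8, 8.70, 11.5 and 17.9 and an MBD3 fold of 5.46 on day 6, and its later peaks are in none of the counts of peaks. The peak nearest to the Igf2r start was 9914 bp away and the one nearest to the Airn start 18481 bp away, both being the day 0 peak that the genes share.

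Peg3 encodes a large zinc finger protein expressed from the paternal copy, and it carried MBD3 at the same 2 places on all 4 days. The MBD3 site with the highest fold of all 15 was chr7:6707790-6708336, inside Peg3 and 22499 bp from its start. Its folds were 8.28, 22.7, 8.21 and 18.8 on days 0, 2, 4 and 6. The fragments over its summit were 96, 271, 107 and 118, over backgrounds of 10.7, 11.0, 12.2 and 5.31 fragments. The fragments stood apart on day 2, while the high fold of day 6 went with the lowest background. No CTCF peak overlapped it on any day, and the nearest CTCF summit was 18949 to 18990 bp away. A fold as high or higher, its own included, was held by 5 of the 1166 MBD3 peaks without CTCF on day 0. Day 2 had 53 such peaks among 922, day 4 had 153 among 1416 and day 6 had 77 among 887. Over the whole MBD3 lists, with or without CTCF, a fold as high was held by 497 of 10464 peaks on day 0 and 53 of 1991 on day 2. On day 4 it was 517 of 9006 and on day 6 it was 148 of 10875. Among the 901 MBD3 sites of all 4 days, 159 had no CTCF peak on any day. The other MBD3 site of Peg3, chr7:6727212-6727855, had folds of 8.35, 2.78, 4.24 and 5.47 and overlapped a CTCF peak on each day, 2873 bp from the start. The CTCF site there, chr7:6727074-6728195, had folds of 14.5, 5.15, 11.1 and 15.6 over peaks 1107, 633, 1032 and 1085 bp wide, against median widths of 350, 262, 301 and 334 bp for CTCF in the 10 windows. On day 2 the MBD3 site without CTCF thus stood at its highest fold and the one with CTCF at its lowest.

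Peg3 had 2 further CTCF sites without MBD3. The first, chr7:6688730-6689128, lies below the gene in Zim1, a neighbouring imprinted zinc finger gene, and had folds of 12.5, 6.31, 14.4 and 6.89 on days 0, 2, 4 and 6. The fragments behind them were 57, 45, 57 and 56, over backgrounds of 3.65, 6.28, 3.03 and 7.27, so the folds differed more between days than the fragments did. The second, chr7:6729014-6729509, lay 1097 bp from the Peg3 start and was found on days 0, 4 and 6 at folds of 4.08, 3.69 and 2.70.

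Mest encodes a protein of the alpha/beta hydrolase fold family and is expressed from the paternal copy. Its lasting site was chr6:30736890-30737271, 926 bp from the nearest of its 3 annotated starts, with CTCF folds of 12.7, 5.92, 9.32 and 13.2 on days 0, 2, 4 and 6. MBD3 overlapped this site on day 6 alone, at a fold of 3.97 over 50 fragments. The remaining Mest sites were all found on day 0. They were chr6:30732605-30732969, below the gene, with folds of 6.79 on day 0 and 4.22 on day 4, chr6:30737860-30738482, over the second promoter shown above, with a fold of 3.94, and chr6:30740651-30741065, with a fold of 3.13. Thus 4 CTCF sites stood at Mest on day 0 and 1 on day 6. The sites without a peak on day 6 had 136, 50 and 23 fragments on day 0, the day of the longest CTCF list. How many CTCF sites of day 0 have no peak on day 6 over the genome was not computed.

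Peg10, a gene derived from a retrotransposon and needed for the placenta, is expressed from the paternal copy and lies head to head with Sgce, the gene of epsilon-sarcoglycan. Its single CTCF site, chr6:4746945-4747408, covered the neighbouring annotated ends of both genes. The CTCF folds there were 16.5, 5.65, 11.5 and 12.2 on days 0, 2, 4 and 6, with MBD3 at 2.37 on day 0 and 4.85 on day 6. The day 0 MBD3 peak had the lowest fold of the MBD3 peaks in the windows, with 21 fragments over a background of 8.28. At 2 other places MBD3 stood without CTCF, at chr6:4733405-4733708 in Sgce on day 4, with a fold of 2.98 over 16 fragments, and at chr6:4754272-4754441 in Peg10 on day 6, with a fold of 4.84 over 18 fragments.

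Grb10 encodes an adaptor protein that damps signalling from the insulin and insulin-like growth factor receptors, and it is expressed from the maternal copy in most tissues and from the paternal copy in neurons. It held the CTCF peak of highest fold in the 10 windows. That site, chr11:11973332-11973836, lies inside the gene, 54415 bp from its nearest annotated start, and had CTCF folds of 10.1, 11.7, 17.3 and 27.8 on days 0, 2, 4 and 6. MBD3 overlapped it on each day, at folds of 4.99, 5.43, 5.69 and 10.3, over 72, 51, 76 and 100 fragments. A second strong site, chr11:12025609-12026125, lies 52306 bp higher and 2101 bp from the second annotated start. There the CTCF folds were 20.9, 6.95, 12.1 and 11.2, and MBD3 had folds of 4.53 on day 0, 3.77 on day 4 and 3.08 on day 6. By fold, the internal site was lower than the site near the start on day 0, at 0.485 times, and higher on days 2, 4 and 6, at 1.68, 1.43 and 2.47 times.

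The fragments put these 2 Grb10 sites in another order on 2 of the days. The internal site had 296, 138, 226 and 344 fragments on days 0, 2, 4 and 6, and the site near the start had 249, 201, 172 and 232, which gives ratios of 1.19, 0.687, 1.31 and 1.48. The expected background was 28.3, 10.9, 12.1 and 11.4 fragments at the internal site and 11.0, 28.1, 13.3 and 19.7 at the site near the start. On day 0 the internal site thus had more fragments and a lower fold, and on day 2 fewer fragments and a higher fold. On days 4 and 6 fold and fragments gave the same order. Within its list the internal site stood at the 73.8th, 97.4th, 93.5th and 99.5th percentile of CTCF fold on the 4 days, and the site near the start at the 98.2nd, 74.2nd, 75.3rd and 65.6th. A neighbour of the internal site, chr11:11974922-11975292, whose summit lay 1505 bp from it, had CTCF folds of 11.8, 4.69, 10.1 and 10.9 and no MBD3 on any day. At the upper start of Grb10, 190 bp from it, chr11:12037127-12037304 had CTCF on day 0 only, at a fold of 4.33.

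**Figure D3:**
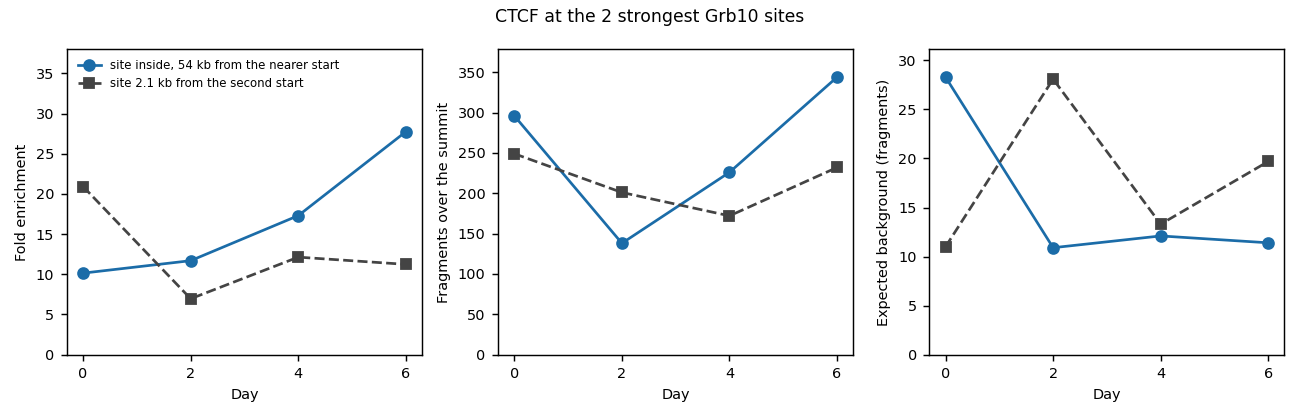
CTCF at the 2 strongest Grb10 sites by day: fold enrichment (left), fragments over the summit (middle) and expected background in fragments (right), for the site inside the gene (blue circles) and the site 2.1 kb from the second start (grey squares), with 1 value per pooled list. The order of the sites by fold turns between day 0 and day 2 together with the order of their backgrounds, and on day 6 the internal site is higher in both fold and fragments, at 344 against 232.

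Rasgrf1 encodes an exchange factor that activates Ras in neurons and is expressed from the paternal copy. It had 6 CTCF sites and no MBD3 peak on any day. The site found on all 4 days, chr9:89969100-89969350, had folds of 5.41, 5.58, 10.3 and 5.81 on days 0, 2, 4 and 6, over 39, 42, 46 and 32 fragments. Of the 16 CTCF sites found on every day, 14 had a lower fold on day 2 than on day 0, against 90.0% of all such CTCF sites, and the exceptions were this site and the internal Grb10 site. Above it stood 2 sites of days 4 and 6 only, chr9:89973769-89974068, with folds of 4.61 and 7.47, and chr9:89976665-89976846, with folds of 3.38 and 3.88. A site found on days 0 and 2, chr9:89940561-89940808, had folds of 5.89 and 4.62, and one of day 0 only, chr9:90012851-90013031, had a fold of 2.84. The remaining site, chr9:90027729-90028109, lay 750 bp beyond the end of the gene and had folds of 8.31, 5.37 and 9.51 on days 0, 4 and 6. The peaks of the 5 sites inside the gene rested on 19 to 46 fragments each, and the nearest summit to the annotated start lay 30881 bp from it.

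Gnas encodes the stimulatory G protein alpha subunit that couples hormone receptors to adenylyl cyclase, and its several promoters are imprinted in different ways. It had 7 CTCF sites and 3 MBD3 sites. The strongest CTCF site, chr2:174310916-174311202, had folds of 6.36, 3.57, 11.4 and 10.3 on days 0, 2, 4 and 6, with MBD3 on day 6 at a fold of 4.91. Its neighbour chr2:174312208-174312496 had CTCF on days 0, 4 and 6 at 6.25, 8.95 and 10.2. The site chr2:174297327-174297655 had the lowest CTCF folds of all sites found on 4 days, at 4.68, 3.22, 4.27 and 3.70. At the first start, chr2:174284025-174284348 had folds of 4.83, 4.11 and 4.40 on days 0, 4 and 6, with the day 0 summit 108 bp before the start, in the promoter shown above. This site also lies in the antisense gene Gnasas1, as did chr2:174295242-174295590, found on day 0 at a fold of 5.06. The other sites were chr2:174328953-174329155, of day 0, with a fold of 3.56, and chr2:174315594-174315801, of day 6, with a fold of 2.97 over 11 fragments.

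The main MBD3 site of Gnas stood without CTCF near another of its 4 annotated starts. That site, chr2:174330091-174330386, had folds of 3.02 on day 0, 8.05 on day 2 and 4.01 on day 6, and no peak on day 4. The fragments were 86, 183 and 53, over backgrounds of 27.8, 21.9 and 12.5, and its summit on day 2 lay 265 bp from the start. Like the MBD3 site of Peg3 without CTCF, it had its highest fold and its most fragments on day 2, the day of the shortest MBD3 list. The remaining MBD3 sites without CTCF, above Gnas and at Peg10, had no peak on day 2. The MBD3 peaks of the windows had a median of 121 fragments on day 2, against 51, 64.5 and 48 on days 0, 4 and 6. The day 2 median rests on 4 peaks, with those of Peg3 and Gnas without CTCF among them. The other MBD3 peaks of day 2 overlapped CTCF, in Peg3 and Grb10. They had 59 and 51 fragments, the lowest of the 4 days at each site. How many MBD3 sites without CTCF are highest on day 2 over the genome was not computed. The third MBD3 site, chr2:174347638-174348022, lay 894 bp beyond the end of the gene and was found on day 6 at a fold of 3.22 over 20 fragments.

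The 2 proteins overlapped at a part of the sites. In the windows, 6 of the 8 MBD3 peaks of day 0 overlapped a CTCF peak of that day (75.0%, 95% interval 34.9 to 96.8), against 88.9% of the whole list. On day 2 it was 2 of 4 (50%, 6.76 to 93.2), against 53.7%, on day 4 it was 4 of 6 (66.7%, 22.3 to 95.7), against 84.3%, and on day 6 it was 8 of 12 (66.7%, 34.9 to 90.1), against 91.8%. The intervals cover counting error only, and peaks of the same gene are not independent. Seen from CTCF, 6 of 31 peaks overlapped MBD3 on day 0 (19.4%, 95% interval 7.45 to 37.5), against 19.5% of the list. For day 2 it was 2 of 16 (12.5%, 1.55 to 38.3), against 3.80%. On day 4 it was 4 of 23 (17.4%, 4.95 to 38.8), against 20.6%, and on day 6 it was 8 of 24 (33.3%, 15.6 to 55.3), against 26.1%. Where peaks overlapped, the summits of MBD3 and CTCF were a median of 10 bp apart over 20 pairs, with a range of 1 to 206 bp and 17 within 50 bp. The 20 pairs include the same site on several days. These distances were not computed over the whole lists, so they are not set apart from those of other genes. The widest gap, 206 bp, was at Peg10 on day 0.

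By site, 10 of the 15 MBD3 sites overlapped CTCF on at least 1 day, against 85.0% of all MBD3 sites, and the 5 that never did lay in Peg3, in and just above Gnas (1 site each) and at Peg10 (2 sites). Of the 35 CTCF sites, 11 met MBD3 on at least 1 day, against 28.9% of all CTCF sites. The site at the rim of the Airn window is among the 11, and each of the 11 was found on every day. A site with peaks on more days had more days on which an overlap could be counted. The share of sites of every day among all CTCF sites that met MBD3 was not computed. The CTCF sites of all 4 days without MBD3 were 5, namely the first above Cdkn1c, the Zim1 site of Peg3, the neighbour of the internal Grb10 site, the Rasgrf1 site and the weakest Gnas site. The median CTCF folds of the 11 sites with MBD3 were 11.8, 5.68, 11.1 and 13.2 on days 0, 2, 4 and 6, and those of the 5 sites without MBD3 were 11.8, 4.69, 10.3 and 6.89. The ranges on day 6 were 10.3 to 27.8 with MBD3 and 3.70 to 10.9 without it, and they overlapped. The part of CTCF peak height in the sharing was not tested.

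**Figure D4:**
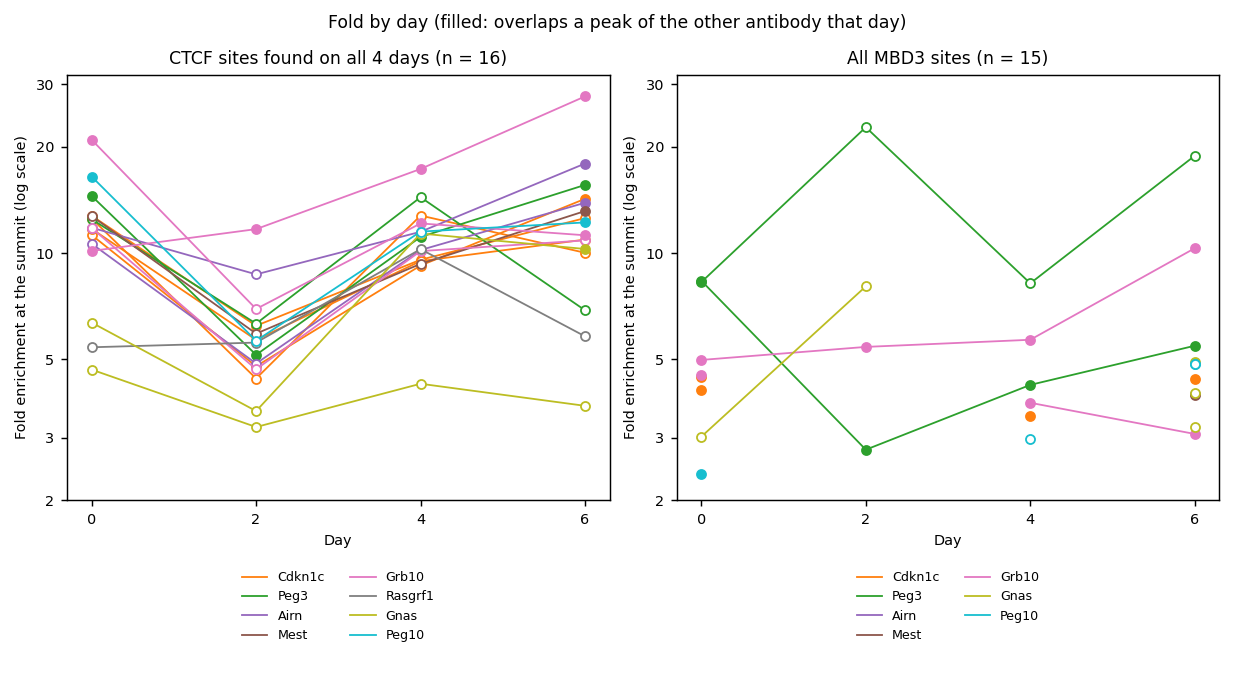
Fold enrichment at the summit (log scale) by day for the 16 CTCF sites found on all 4 days (left) and all 15 MBD3 sites (right), coloured by gene; lines join consecutive days with a peak, and filled points overlap a peak of the other antibody that day. Most CTCF lines are lowest on day 2, the internal Grb10 site reaches 27.8 on day 6, and the open MBD3 points of Peg3 reach 22.7 on day 2.

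The presence or absence of peaks in the 8 lists was shared with many genes. Peg3 and Grb10, with both proteins in all 8 lists, had the same pattern as 1592 protein-coding genes, and Cdkn1c and Peg10, which lacked MBD3 on day 2 alone, as 4227. The pattern of Gnas, without MBD3 on day 4 alone, was shared by 70. Airn was like 1181 genes and Mest like 1180, both with CTCF on all days and MBD3 on day 6 alone. Rasgrf1, with CTCF on all days and no MBD3, was like 2777 genes, and Igf2r, with CTCF on days 0 and 6 alone, was like 248. Likeness within a pattern was the Euclidean distance over the 8 values of log2(highest fold in the window + 1). The nearest gene to Peg3 was its neighbour Zim1, at 0.565, whose window overlaps that of Peg3, and then came Sumf1 at 0.869 and Snrnp70 at 1.05. For Grb10 they were Mon1b and Syce1l at 0.652 each and Scd4 at 0.723, and for Gnas they were Ccdc28b and Txlna at 1.12 each and Hspa8 at 1.16. For Cdkn1c they were Plin3 at 0.183, Chst12 at 0.187 and Prss56 at 0.188. For Peg10 the nearest was Sgce at 0, through the shared site and the day 4 MBD3 peak in Sgce, which both windows hold. Then came Txn2 at 0.442 and Dlgap4 at 0.464. For Mest it was the neighbour Copg2 at 0.167, then Dlx6 and Dlx5 at 0.168 each. Airn was nearest to Serpinb9 at 0.138, then to Rtp1 and Masp1 at 0.152 each, Rasgrf1 to Lpcat2 at 0.134, then to Fgfr3 and Letm1 at 0.163 each, and Igf2r to Rrp36, Klhdc3 and Mea1 at 0.0693 each. Genes given at the same distance lie on the same chromosome as each other.

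Other imprinted genes gave a wider frame, from a list of 55 that were all found in the annotation, 47 of them with windows apart from those of the 10 genes. Of these 47, CTCF was found for 43, 40, 39 and 42 on days 0, 2, 4 and 6, which is 91.5%, 85.1%, 83.0% and 89.4%. MBD3 was found for 25, 10, 27 and 31 of them, which is 53.2%, 21.3%, 57.4% and 66.0%. Of all protein-coding genes, 79.4%, 67.8%, 74.1% and 74.9% had CTCF on these days, and 42.2%, 10.6%, 39.2% and 43.5% had MBD3. Shares for genes of like length to the 47 were not computed. The 47 include clusters of neighbours that share peaks, so they are not independent genes.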

How the data were processed

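Peak lists of CTCF and MBD3 ChIP-seq in mouse embryonic stem cells were used, 1 per antibody and day. The submitters' processing notes name the mm10 build, the peak caller MACS2 2.1.2, the aligner Bowtie2 2.3.4, bedtools 2.25.0, SAMtools 1.9 and FastQC 0.11.7, and further settings are not given in the sources used here. The peak names show that replicates 1 to 3 were pooled and set against a control. The authors deposited for each peak a fold enrichment, which is the fragments over the summit relative to a modelled background. Beside it stand, as deposited, a −log10 p and a −log10 q per peak, and the smallest −log10 q of a list is 1.30 or 1.31.

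Rows with the same interval were counted as 1 peak, with the summit of highest −log10 q, on chromosomes 1 to 19, X and Y. Overlap meant 1 bp or more. Gene ends and promoters came from RefSeq tables of GRCm38.p6, which give no exons, so exons and introns were not told apart. Fragments and background at each summit were computed from the fold and p by the formulas of MACS2, with a match within 0.1% of the −log10 p, and this step was tested on simulated data. The genes, lists and alternatives were chosen with earlier results of these data known. All 10 genes are named, with up to 3 genes of the most similar pattern. Replicates are pooled in the lists, so none could be left out and no test was made. Alternatives were a −log10 q of 10, equal list lengths, windows of 5 kb, separate summits, an overlap of 50% and summits within 100 bp, and windows of 50 kb were added after the data were seen. Computations used pandas 2.3.3, numpy 2.4.6 and scipy 1.17.1 in Python 3.11.15, figures matplotlib 3.10.9, and overlaps were checked against bedtools 2.31.1 on simulated data.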

Additional observations from a re-analysis of the deposited data

How the results depend on the processing

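The CTCF counts moved by 1.5 times at most, as on day 6 with 16 peaks at equal list lengths in place of 24, under every alternative run except windows of 50 kb, chosen after the data were seen, where the CTCF peaks of day 2 numbered 25, against 16 with windows of 20 kb. The MBD3 counts moved more. With a −log10 q of 10 or more, the MBD3 peaks of day 0 numbered 4 in place of 8, the genes with MBD3 3 in place of 5 on day 0 and 2 in place of 4 on day 4, and the MBD3 sites 9 in place of 15. With equal list lengths, the MBD3 peaks numbered 3 on each of days 0, 4 and 6, in place of 8, 6 and 12. The genes with MBD3 then numbered 2 on each of these days, in place of 5, 4 and 7, and the MBD3 sites 4. With windows of 5 kb, 2 genes had MBD3 on day 4, in place of 4. Equal lengths remove the weaker peaks of the longer lists by construction, and a −log10 q of 10 or more removes the peaks below it. Windows of 5 kb leave out peaks farther from the genes, and windows of 50 kb add such peaks. Why the MBD3 counts moved more than the CTCF counts was not tested. Counting separate summits, an overlap of 50% and summits within 100 bp moved no count by 1.5 times. The shares of MBD3 in CTCF rest on 4 to 12 peaks a day, so their intervals are wide. No paired analysis was possible because each list pools its 3 replicates. Depth is known only as the fragments over a summit, 11 to 344 for the peaks described.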

Other observations

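Between 20 and 50 kb from the genes lay further CTCF sites, outside the windows of 20 kb. Above Cdkn1c stood a close pair found on every day, 44799 and 45547 bp beyond the gene, with CTCF folds between 5.25 on day 2 and 17.9 on day 6 at the first and between 4.26 on day 2 and 15.0 on day 0 at the second. The first of the pair met MBD3 on day 6 at a fold of 5.21. Igf2r, with CTCF on single days inside its window, had a CTCF site on every day 21463 bp below it, at folds of 4.54, 2.96, 5.99 and 8.12 on days 0, 2, 4 and 6. Below Rasgrf1, 29508 bp from the gene, chr9:89879716-89880000 had CTCF on day 0 only, at a fold of 2.84. A methylated region upstream of Rasgrf1 is known to control its imprinting. Above Rasgrf1, 27308 and 49898 bp beyond its end, CTCF was found on every day, at folds of 5.36, 3.27, 3.24 and 4.49 and of 16.9, 7.69, 18.6 and 17.2.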
